A study of Mus musculus with 13 samples.

Results

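The transcripts of 50 genes of the G2 phase and of mitosis were followed through 13 mouse livers. They were taken by symbol, from a list of proliferation markers, cyclins, mitotic kinases and the parts of the spindle, kinetochore and cytokinesis machinery, and all 50 were found among the 22048 genes counted and passed the filter on low counts that left 13831 genes for testing. Messenger RNA of whole liver from Mus musculus was sequenced in 6 control livers that were not depleted of hepatic stellate cells (replicates 1, 2 and 6 male, replicates 3, 4 and 5 female), in 4 livers from which these cells had been depleted (1 male, replicate 3, and females as replicates 1, 2 and 4), and in 3 livers with their stellate cells in place, taken 72 h after a partial hepatectomy (males as replicates 1 and 2, a female as replicate 3). The strain, the age, the way in which stellate cells were removed, the time since their removal and any sham operation are not given in the sources used here. Stellate cells lie along the liver sinusoid and store vitamin A. In a partial hepatectomy some lobes of the liver are cut out, and the remnant then grows back. The series title links stellate cells to hepatocyte proliferation, and the comparisons ask how far transcripts of dividing cells differ between livers without stellate cells, regrowing livers and controls.

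Cells that have copied their DNA prepare for division in G2 by making cyclins A and B, which bind and activate the kinase CDK1. CDK1 together with Aurora and Polo-like kinases builds the spindle and attaches it to the kinetochores, the spindle checkpoint holds the cell until each chromosome is attached, and CDC20 with the anaphase-promoting complex then releases the sister chromatids by destroying securin and the cyclins. Most genes of this programme are silent in resting cells through the DREAM repressor complex and are switched on by the MuvB core of that complex together with B-Myb (Mybl2) and then FoxM1. Adult hepatocytes are largely quiescent and re-enter the cycle after loss of liver tissue, so the transcripts are scarce in a resting liver and are also made by any other dividing cell in the tissue.

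Promoters of these genes are known for 2 short elements, the CCAAT box bound by NF-Y and the cell cycle genes homology region (CHR) bound by MuvB complexes, and they are shown because they are what the members share in sequence. RefSeq promoter windows on GRCm38.p6, from 250 bases before to 50 bases after a gene's start, matched 42 of the 50 genes. Both strands were searched for CCAAT, for the CHR written as TTTGAA or TTCGAA, and for an E2F word written as TTTCCCGC, TTTCGCGC, TTTGCCGC or TTTGGCGC. CCAAT was found in 31 of the 42 (73.8%, against 41.1% of 27025 genes with such a window), a CHR in 32 (76.2%, against 21.7%), both in 28 (66.7%, against 8.61%) and an E2F word in 4 (9.52%, against 2.61%). A CHR beginning from 60 bases before to 50 bases after the start was present in 28 of the 42 (66.7%, against 6.79% of all genes). The 150 bases before the start of 7 genes are printed 5′ to 3′ along the gene, with CCAAT, CHR and E2F letters of either strand in capitals. Top2a, Ccnb2, Kif11 and Espl1 represent genes called higher in both groups of livers. Hmmr had the largest estimate between depleted and hepatectomised livers, though it missed the threshold, Kif15 had the estimate closest to 0, and Mybl2 was the gene called in the opposite direction.
Top2a (chr11:99024190-99024339, minus strand): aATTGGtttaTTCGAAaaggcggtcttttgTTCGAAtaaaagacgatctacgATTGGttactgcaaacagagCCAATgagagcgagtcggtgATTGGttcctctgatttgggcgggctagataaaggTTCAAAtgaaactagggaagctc
Ccnb2 (chr9:70421555-70421704, minus strand): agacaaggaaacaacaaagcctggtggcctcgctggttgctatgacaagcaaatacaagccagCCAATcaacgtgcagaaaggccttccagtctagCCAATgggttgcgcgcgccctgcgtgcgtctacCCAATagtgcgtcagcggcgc
Kif11 (chr19:37376232-37376381, plus strand): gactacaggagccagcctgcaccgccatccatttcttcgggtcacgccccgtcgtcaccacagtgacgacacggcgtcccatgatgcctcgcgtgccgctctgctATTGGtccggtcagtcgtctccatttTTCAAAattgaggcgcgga
Espl1 (chr15:102296143-102296292, plus strand): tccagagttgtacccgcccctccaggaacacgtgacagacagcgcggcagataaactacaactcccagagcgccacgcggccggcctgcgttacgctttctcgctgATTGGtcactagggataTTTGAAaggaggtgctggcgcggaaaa
Hmmr (chr11:40733438-40733587, minus strand): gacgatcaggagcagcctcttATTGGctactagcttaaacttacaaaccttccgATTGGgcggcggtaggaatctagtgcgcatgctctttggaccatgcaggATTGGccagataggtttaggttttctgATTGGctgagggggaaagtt
Kif15 (chr9:122950931-122951080, plus strand): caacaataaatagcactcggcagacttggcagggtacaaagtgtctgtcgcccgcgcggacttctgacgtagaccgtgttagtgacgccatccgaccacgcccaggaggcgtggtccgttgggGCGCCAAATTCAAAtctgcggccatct
Mybl2 (chr2:163054485-163054634, plus strand): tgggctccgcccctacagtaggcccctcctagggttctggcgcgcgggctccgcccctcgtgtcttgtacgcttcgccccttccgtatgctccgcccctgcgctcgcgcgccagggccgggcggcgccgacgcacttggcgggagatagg
Top2a carries 4 CCAAT boxes and 3 CHR words in this stretch, Ccnb2 carries 3 CCAAT boxes, Hmmr carries 4, and Kif11 and Espl1 carry 1 of each element. Beyond the printed stretch but within the window, Ccnb2 has CHR words beginning at positions -167 and 5 from the start. Hmmr has a CHR word beginning at position 9. In Kif15 the E2F word lies directly beside the CHR, and no CCAAT is present there. None of the words searched for lies in the whole 300-base window of Mybl2, and other spellings of an E2F site were not searched. A match describes letters only, and binding was not measured.

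All values below are counts-per-million (CPM) levels after trimmed-mean (TMM) scaling, and a log2 fold change comes from edgeR's quasi-likelihood test with sex in the model and Benjamini-Hochberg adjustment over all 13831 genes. A gene is said to have risen or fallen when its adjusted p was under 0.05. Total counts were between 35360991 and 51008737 per library, so 3 counts corresponded to 0.0524 to 0.0900 TMM-scaled CPM, and printed values under 0.0524 CPM rest on fewer than 3 reads. These floors cover counting error only. The labels call the libraries separate samples but do not name separate animals, so p-values measure the spread between these samples, part of which may be technical. A level in whole-liver RNA cannot tell fewer or more dividing cells apart from less or more RNA per cell.

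The libraries did not stand evenly within their groups. Control replicate 4 was the highest control for 47 of the 50 genes, while it was the highest control for 18.2% of all genes tested, and its levels were 1.26 to 31.9 times the median of the other 5 controls (median over the genes, 5.29). Summed over the 50 genes, it held 222 CPM against 47.2 to 94.0 CPM in the other 5 controls. Depleted replicate 4 was the highest depleted liver for 45 genes (37.5% of all genes) and depleted replicate 2 the lowest for 49 (28.3% of all genes). Hepatectomised replicate 2 was the highest of its group for all 50 genes (35.8% of all genes) and the highest of all 13 livers for 48. Hepatectomised replicate 3, the only female of that group, was the lowest for 49 genes (36.0% of all genes), so its sex and its other properties cannot be told apart. Hepatectomised replicate 2 also stood apart in markers of sinusoidal cells, with a summed level of 82.3 CPM for 8 Kupffer cell markers against 285 and 759 CPM in its group, and of 94.2 CPM for 8 endothelial markers against 225 and 288 CPM. Control replicate 6, the lowest control for 32 of the 50 genes (29.1% of all genes), was low in the same markers, with 73.1 CPM against 395 to 601 CPM and 94.2 CPM against 313 to 450 CPM in the other controls. The part of these differences in the levels of the 50 genes was not tested.

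**Figure D1:**
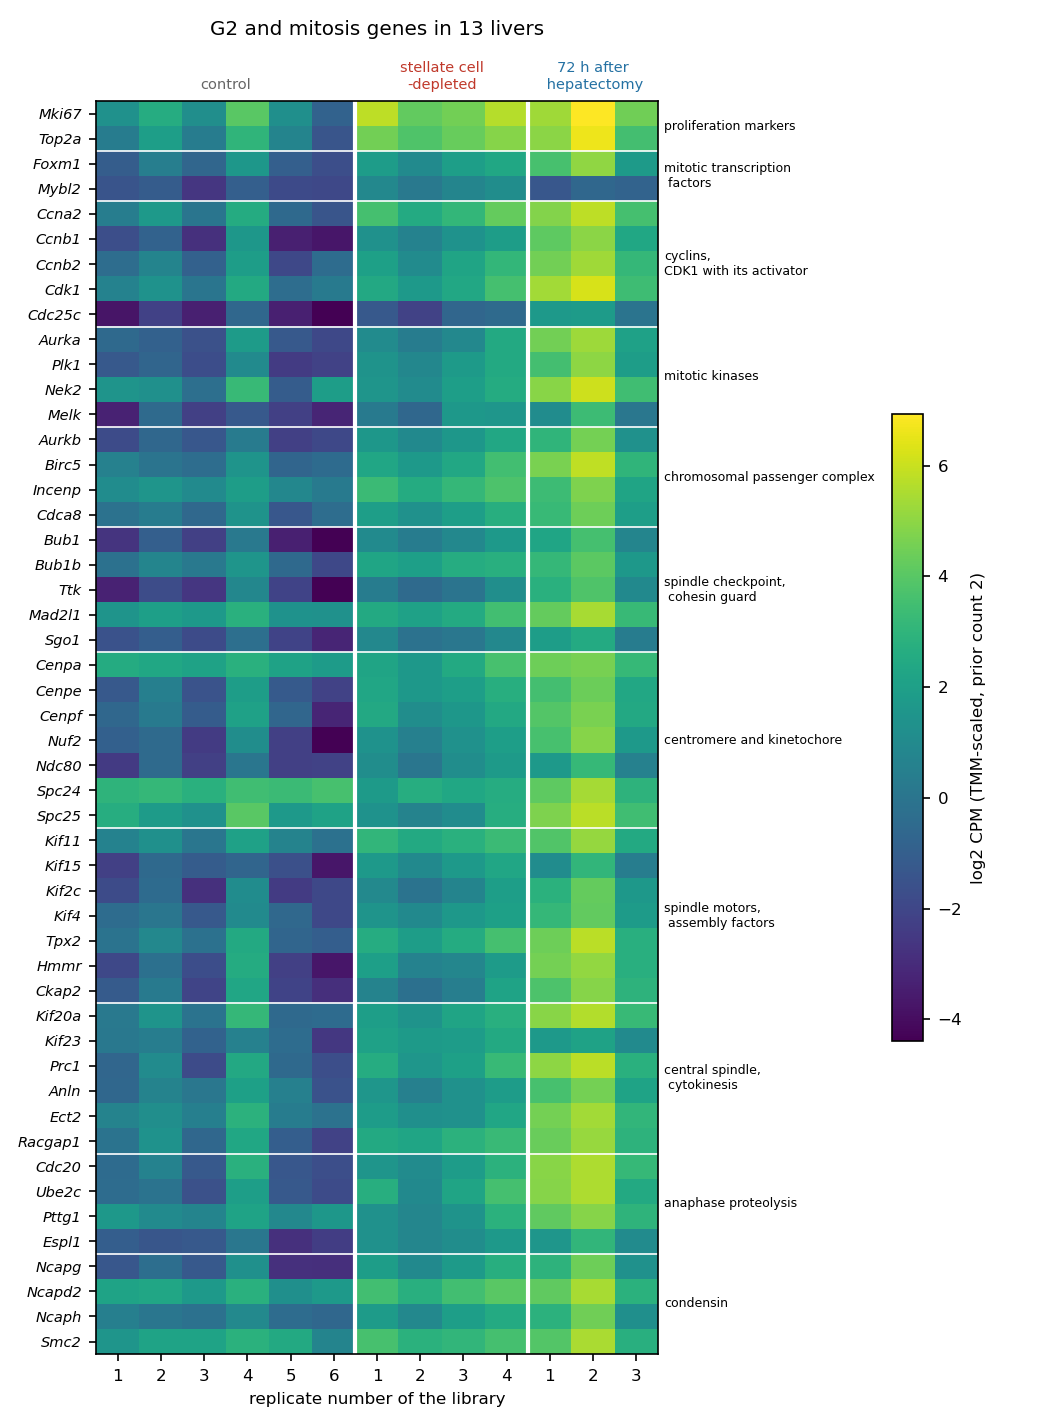
Levels of the 50 genes (rows, grouped by role) in the 13 libraries (columns, by group and replicate number), as log2 CPM with a prior count of 2, where yellow is high and dark blue is low. Control replicate 4 is the brightest control column, and hepatectomised replicate 2 is the brightest column of all in 48 rows.

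Mean log2 CPM over the 50 genes lay between -1.39 and 1.71 in controls, between 1.20 and 2.66 with stellate cells depleted and between 2.18 and 4.67 after hepatectomy. Summed levels were 155 to 410 CPM in depleted livers and 290 to 1701 CPM in hepatectomised livers. The group means of 46 genes were ordered control, depleted, hepatectomised. A scaling by library size alone moved the median of all genes after hepatectomy from -0.02 to -0.24 on the log2 scale. It turned the share of higher calls there from 72.0% of 1164 genes to 28.6% of 2192, whereas 46 of the 50 genes still rose and 0 fell. The same scaling moved the share of higher calls from 55.7% to 66.2% in depleted livers against control and from 56.8% to 83.6% in depleted against hepatectomised livers. The ranges of mean log2 CPM overlapped between neighbouring groups, because control replicate 4 lay above depleted replicate 2 and hepatectomised replicate 3 lay below depleted replicate 4.

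In livers depleted of stellate cells, 26 of the 50 genes rose against controls and 0 fell, and 18.9% of all genes tested rose and 15% fell (33.9% in either direction). Their median log2 fold change was 1.94 against -0.03 over all genes tested, and 48 of the 50 estimates were above 0. The 26 included both proliferation markers, all 4 members of the chromosomal passenger complex, 3 of 5 checkpoint and cohesin-guard genes and 3 of 4 condensin genes, 2 of 7 centromere and kinetochore genes and 2 of 6 cytokinesis genes. Differences between roles were not tested. Unadjusted p-values under 0.05 were reached by 32 genes. The 4 depleted livers lay above all 6 controls for 14 genes (16.5% of all genes) and below them for 1, Spc24 (11.9% of all genes).

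The count of 26 depended on single libraries. It was 44 without control replicate 4, where 2531 of all genes rose against 2614 with it. That library is the highest control for most of the 50 genes, so leaving it out favours them over other genes. Without it Cenpa, Spc24, Spc25, Anln, Pttg1 and Smc2 were the 6 not called. The count was 17 without depleted replicate 4, where 2529 of all genes rose. It was 14 without depleted replicate 3, the only depleted male, and 7 among females alone (3 livers against 3), and in these fits the genes that rose among all genes were also fewer, 1786 and 1839. The genes that rose whichever single library was left out were 14 of the 26: Top2a, Mybl2, Melk, Aurkb, Birc5, Incenp, Cdca8, Sgo1, Ndc80, Kif11, Kif15, Kif23, Espl1 and Ncapd2. Mybl2, Melk, Aurkb, Incenp, Kif11, Kif15 and Kif23 rose under every alternative tried.

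At 72 h after partial hepatectomy, 47 of the 50 genes rose against the same 6 controls and 0 fell, and 6.06% of all genes tested rose and 2.36% fell (8.42% in either direction). The median log2 fold change was 3.74, and all 50 estimates were above 0. Mybl2, Spc24 and Spc25 did not pass the test. The 3 hepatectomised livers lay above all 6 controls for 46 genes (7.41% of all genes) and below them for 0 (6.25% of all genes), the exceptions being Mybl2, Spc24, Spc25 and Smc2. The count of 47 was 17 without hepatectomised replicate 2, 24 without control replicate 1 and 25 when the depleted livers were left out of the fit. In a fit with the replicate number as a block the count was again 47 (632 genes of all against 1164), with Spc25 gained (log2 fold change 2.68, adjusted p = 0.0207) and Smc2 lost (2.12, adjusted p = 0.0922).

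**Figure D2:**
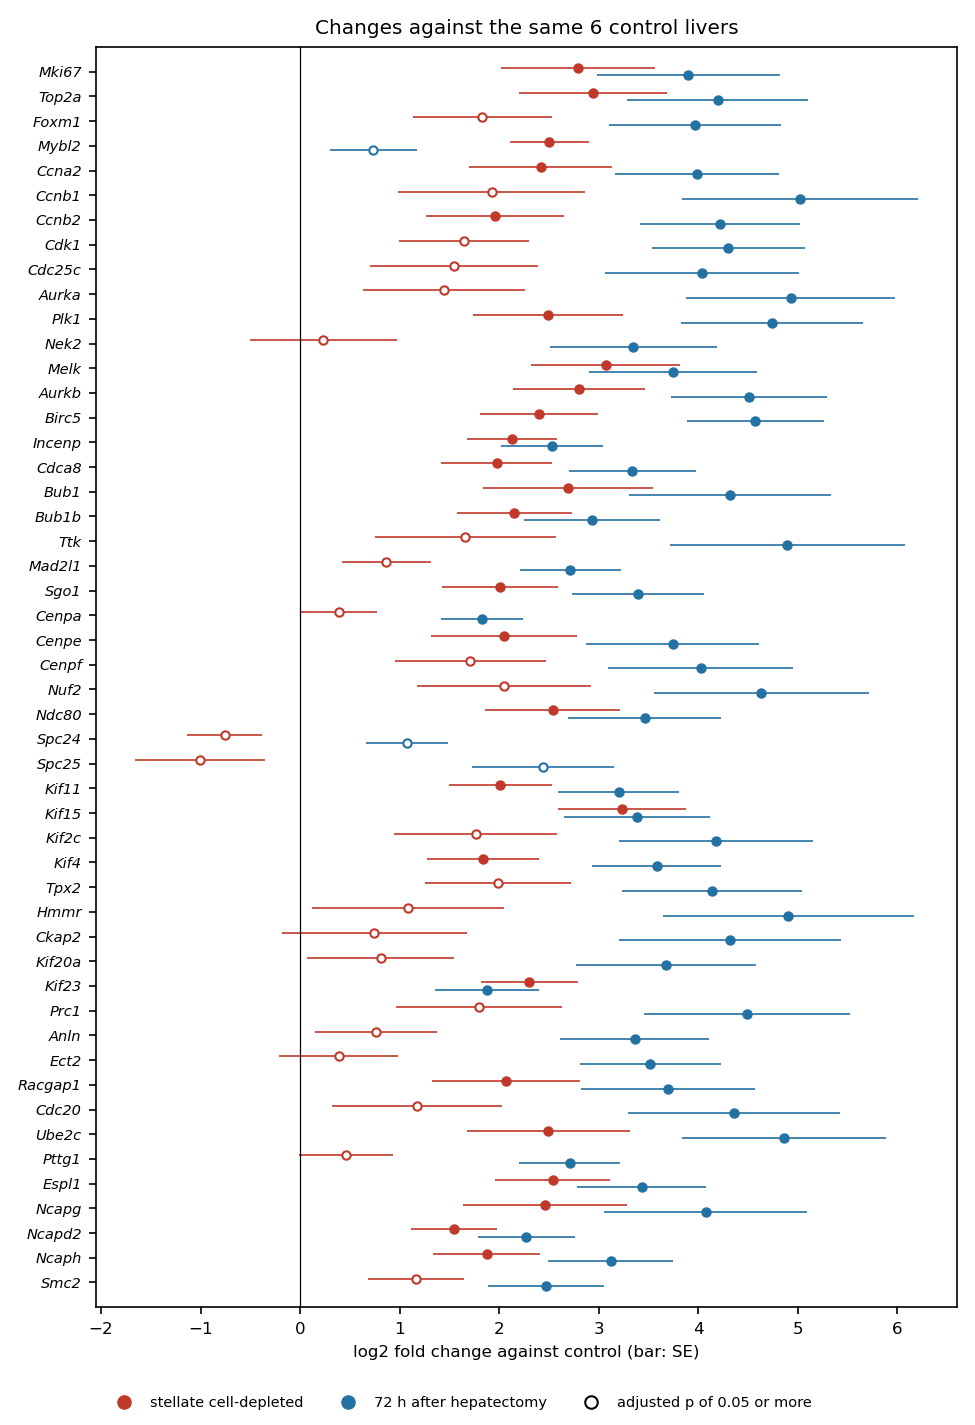
Log2 fold changes against control (horizontal axis; points with SE bars) for the 50 genes, in red for depleted and in blue for hepatectomised livers, with filled points for an adjusted p under 0.05. Blue points lie to the right of red points for 48 genes; for Mybl2 and Kif23 they lie to the left, and both sets of values use the same 6 controls.

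Mki67 encodes Ki-67, which coats mitotic chromosomes and is the usual histological marker of cycling cells. Its lowest, median and highest control levels were 0.510, 2.41 and 16.1 CPM, against 56.0, 18.2, 22.9 and 51.1 CPM in depleted replicates 1 to 4 and 39.4, 122 and 21.9 CPM in hepatectomised replicates 1 to 3. All depleted and all hepatectomised livers lay above all controls, and depleted replicates 1 and 4 lay above hepatectomised replicates 1 and 3. The log2 fold change was 2.79 ± 0.78 (SE, adjusted p = 0.0149) in depleted and 3.90 ± 0.92 (SE, adjusted p = 0.0231) in hepatectomised livers. Without control replicate 4 the value in depleted livers was 3.96. Top2a encodes topoisomerase II alpha, which untangles sister DNA before anaphase. It was at 0.330, 1.41 and 8.16 CPM in the lowest, median and highest control, at 22.6, 13.8, 19.6 and 29.5 CPM in depleted and at 30.7, 99.9 and 11.8 CPM in hepatectomised livers, again with both groups above all controls. It rose by 2.94 ± 0.75 (SE, adjusted p = 0.00922) on the log2 scale in depleted livers and by 4.20 ± 0.91 (SE, adjusted p = 0.0158) after hepatectomy.

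Foxm1 and Mybl2, the transcription factors that switch the programme on, differed in which comparison they passed. Foxm1, a forkhead factor acting in G2, was at 0.270, 0.529 and 2.94 CPM in the lowest, median and highest control, at 3.60, 1.99, 3.84 and 5.01 CPM in depleted and at 12.3, 32.6 and 3.34 CPM in hepatectomised livers. Depleted replicate 2 lay below control replicate 4, and the other depleted livers lay above all controls. The depleted livers differed from control by 1.83 ± 0.70 (SE, adjusted p = 0.0621), which missed the threshold (2.86 and an adjusted p of 0.00436 without control replicate 4), and the hepatectomised livers rose by 3.97 ± 0.87 (SE, adjusted p = 0.0163). Mybl2 (chr2:163054687-163084688, plus strand) encodes B-Myb, the partner of MuvB from S phase onward. It was low in every liver, with 0.118, 0.278 and 0.472 CPM in the lowest, median and highest control, 1.80, 1.10, 1.62 and 2.21 CPM in depleted and 0.353, 0.618 and 0.524 CPM in hepatectomised livers. The 4 depleted livers lay above the other 9, while hepatectomised replicate 1 was below the highest control. It rose by 2.51 ± 0.40 (SE, adjusted p = 0.000432) in depleted livers, and its difference after hepatectomy was 0.74 ± 0.44 (SE, adjusted p = 0.328).

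All 5 genes of cyclins, CDK1 and its activator rose after hepatectomy, and Ccna2 and Ccnb2 also rose in depleted livers. Ccna2, the cyclin of S phase and G2, was at 0.330, 1.12 and 5.96 CPM in the lowest, median and highest control, at 11.9, 5.80, 8.52 and 19.2 CPM in depleted and at 28.3, 55.4 and 12.02 CPM in hepatectomised livers. Depleted replicate 2 lay just below control replicate 4. Ccna2 rose by 2.42 ± 0.72 (SE, adjusted p = 0.0208) in depleted livers and by 3.99 ± 0.82 (SE, adjusted p = 0.0133) after hepatectomy. Ccnb1 (chr13:100778650-100786570, minus strand), a B-type cyclin needed for entry into mitosis, was at 0.0300, 0.181 and 3.01 CPM in the lowest, median and highest control, and control replicate 4 accounted for the highest. It was at 2.48, 1.501, 2.57 and 3.72 CPM in depleted and 17.3, 31.5 and 5.11 CPM in hepatectomised livers, so 3 of the 4 depleted livers lay below control replicate 4 and above the other 5 controls. The difference of 1.92 ± 0.94 (SE, adjusted p = 0.137) in depleted livers missed the threshold and was 4.45 (adjusted p = 0.000569) without control replicate 4. After hepatectomy Ccnb1 rose by 5.02 ± 1.18 (SE, adjusted p = 0.0230).

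Ccnb2, the other B-type cyclin of these livers, was at 0.211, 0.735 and 3.69 CPM in the lowest, median and highest control, at 4.05, 2.08, 4.54 and 8.53 CPM in depleted and at 22.8, 40.3 and 8.73 CPM in hepatectomised livers. Depleted replicate 2 was the one below control replicate 4. It rose by 1.96 ± 0.69 (SE, adjusted p = 0.0466) in depleted livers and by 4.22 ± 0.80 (SE, adjusted p = 0.00924) after hepatectomy. Cdk1 (chr10:69336635-69352938, minus strand), the kinase that the cyclins activate, was at 0.749, 1.32 and 5.48 CPM in the lowest, median and highest control, at 5.33, 3.14, 5.24 and 11.9 CPM in depleted and at 41.2, 75.5 and 10.6 CPM in hepatectomised livers. Depleted replicates 1, 2 and 3 lay below control replicate 4 and above the other controls. Its difference in depleted livers was 1.65 ± 0.65 (SE, adjusted p = 0.0703), and 2.74 (adjusted p = 0.00361) without control replicate 4. It rose by 4.30 ± 0.77 (SE, adjusted p = 0.00671) after hepatectomy. Cdc25c, a phosphatase that activates CDK1, stayed under 1 CPM in every control and depleted liver, with a difference of 1.55 ± 0.84 (SE, adjusted p = 0.181) in depleted livers and a rise of 4.04 ± 0.97 (SE, adjusted p = 0.0236) after hepatectomy.

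**Figure D3:**
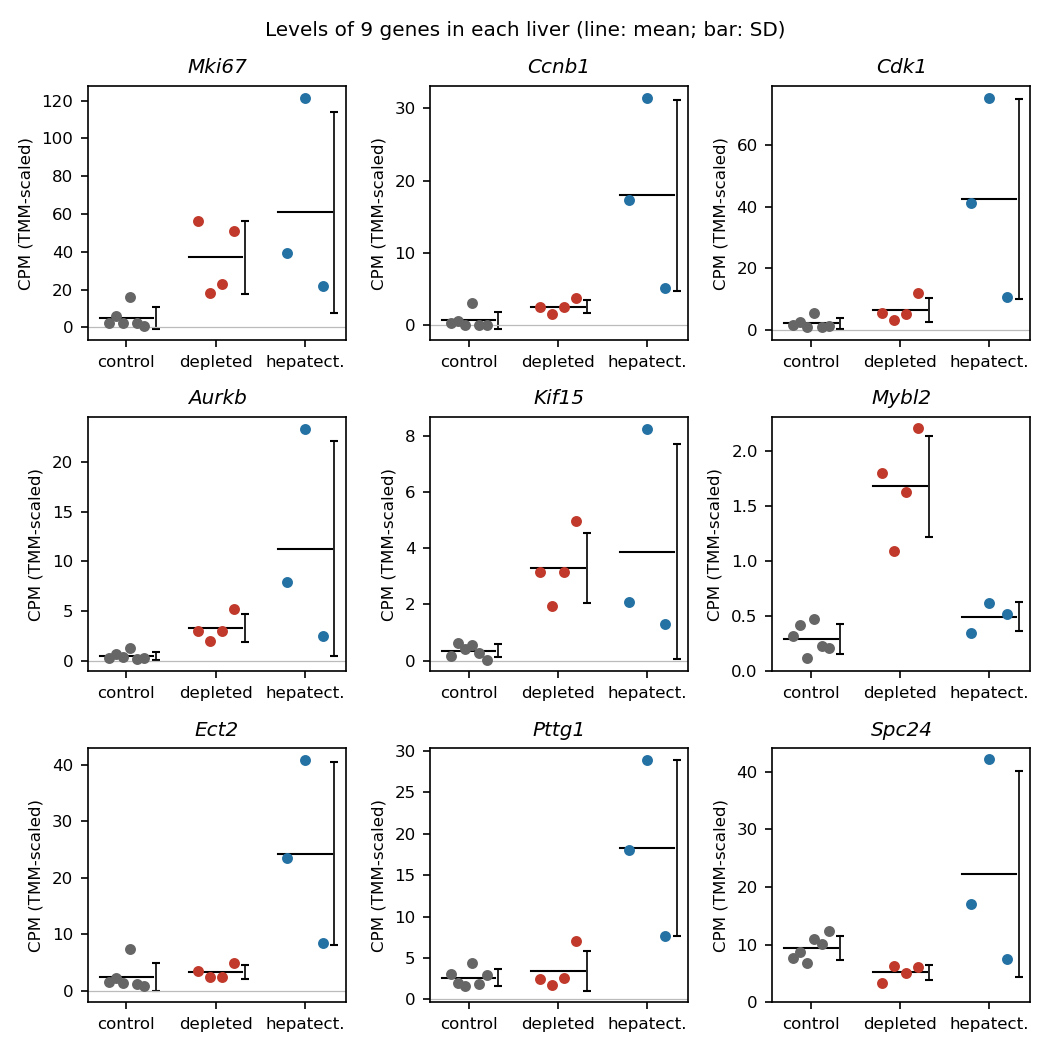
TMM-scaled CPM (vertical axes, each from 0 or below) of 9 genes in each liver. Dots are libraries in replicate order, lines are group means and bars are SD (n = 6, 4 and 3). Mybl2 is the panel in which the 4 depleted livers stand above all others. In Ccnb1, Cdk1, Ect2 and Pttg1 the depleted livers overlap the controls, and in Spc24 they lie below them.

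Of the 4 mitotic kinases, Plk1 and Melk rose in both groups of livers, and Aurka and Nek2 rose after hepatectomy and missed the threshold in depleted livers. Plk1, the Polo-like kinase of mitotic entry and spindle assembly, was at 0.140, 0.317 and 1.98 CPM in the lowest, median and highest control, at 2.66, 1.77, 3.37 and 5.57 CPM in depleted and at 11.7, 31.8 and 3.69 CPM in hepatectomised livers. Depleted replicate 2 was the one depleted liver below control replicate 4. Plk1 rose by 2.49 ± 0.75 (SE, adjusted p = 0.0224) in depleted livers and by 4.74 ± 0.91 (SE, adjusted p = 0.00995) after hepatectomy. Aurka, the Aurora kinase of centrosomes and spindle poles, was at 0.210, 0.434 and 3.48 CPM in the lowest, median and highest control, at 2.04, 1.25, 1.80 and 5.502 CPM in depleted and at 22.9, 38.9 and 4.21 CPM in hepatectomised livers. Depleted replicates 1 to 3 lay below control replicate 4. Aurka differed by 1.45 ± 0.81 (SE, adjusted p = 0.194) in depleted livers (3.06 and an adjusted p of 0.00593 without control replicate 4) and rose by 4.93 ± 1.05 (SE, adjusted p = 0.0147) after hepatectomy. Nek2, a kinase that separates centrosomes, differed by 0.23 ± 0.74 (SE, adjusted p = 0.840) in depleted livers (1.87 and an adjusted p of 0.0182 without control replicate 4), where its levels of 2.85, 2.06, 3.81 and 5.86 CPM lay inside the control range of 0.421 to 9.35 CPM, and it rose by 3.35 ± 0.84 (SE, adjusted p = 0.0298) after hepatectomy. Melk, a kinase present in dividing progenitors, rose by 3.07 ± 0.75 (SE, adjusted p = 0.00710) in depleted livers and by 3.75 ± 0.84 (SE, adjusted p = 0.0178) after hepatectomy.

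The chromosomal passenger complex corrects faulty attachments and later starts cytokinesis, and all 4 of its genes rose in both groups of livers. Aurkb, its kinase, was at 0.164, 0.298 and 1.21 CPM in the lowest, median and highest control, at 2.96, 1.93, 2.95 and 5.21 CPM in depleted and at 7.97, 23.4 and 2.49 CPM in hepatectomised livers. Neither group overlapped the controls. Aurkb rose by 2.80 ± 0.66 (SE, adjusted p = 0.00590) in depleted livers and by 4.51 ± 0.78 (SE, adjusted p = 0.00567) after hepatectomy. Birc5, which encodes survivin, was at 0.562, 0.835 and 2.74 CPM in the lowest, median and highest control, at 4.97, 3.14, 5.27 and 11.1 CPM in depleted and at 25.4, 57.0 and 8.03 CPM in hepatectomised livers. Here too both groups lay above all controls. Birc5 rose by 2.40 ± 0.59 (SE, adjusted p = 0.00783) in depleted livers and by 4.57 ± 0.69 (SE, adjusted p = 0.00342) after hepatectomy. Incenp, the scaffold of the complex, rose by 2.12 ± 0.45 (SE, adjusted p = 0.00312) and 2.53 ± 0.51 (SE, adjusted p = 0.0123), and Cdca8, which encodes borealin, rose by 1.97 ± 0.56 (SE, adjusted p = 0.0164) and 3.34 ± 0.64 (SE, adjusted p = 0.00924), in depleted and hepatectomised livers respectively.

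Spindle checkpoint genes rose in part in depleted livers and all rose after hepatectomy. Bub1, a checkpoint kinase of the kinetochore, was at 0, 0.136 and 1.08 CPM in the lowest, median and highest control, at 2.01, 1.23, 1.83 and 3.32 CPM in depleted and at 4.79, 11.8 and 1.65 CPM in hepatectomised livers, and the lowest control had no read of it. Both groups lay above the highest control. Bub1 rose by 2.69 ± 0.86 (SE, adjusted p = 0.0285) in depleted livers and by 4.32 ± 1.02 (SE, adjusted p = 0.0229) after hepatectomy. Bub1b, which encodes the checkpoint protein BubR1, was at 0.210, 0.958 and 2.83 CPM in the lowest, median and highest control, at 4.71, 4.01, 6.13 and 6.71 CPM in depleted and at 8.94, 17.0 and 3.04 CPM in hepatectomised livers, with no overlap with controls. Bub1b rose by 2.15 ± 0.58 (SE, adjusted p = 0.0123) in depleted livers and by 2.93 ± 0.68 (SE, adjusted p = 0.0215) after hepatectomy. Mad2l1, which encodes the inhibitor of CDC20, was at 2.46, 2.98 and 6.90 CPM in the lowest, median and highest control, at 5.61, 4.17, 5.71 and 11.1 CPM in depleted and at 19.2, 43.9 and 9.25 CPM in hepatectomised livers. Depleted replicates 1 to 3 lay inside the control range. Mad2l1 differed by 0.87 ± 0.45 (SE, adjusted p = 0.157) in depleted livers and rose by 2.72 ± 0.51 (SE, adjusted p = 0.00843) after hepatectomy. Sgo1, the guard of centromeric cohesin, rose by 2.01 and 3.39 in the 2 groups, and Ttk, a checkpoint kinase, rose by 4.90 after hepatectomy with 1.66 ± 0.91 (SE, adjusted p = 0.184) in depleted livers.

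Genes of the centromere and of the kinetochore had the widest span of log2 fold changes of the 11 roles against control, from -1.004 to 2.54 in depleted livers and from 1.07 to 4.63 after hepatectomy, but not between depleted and hepatectomised livers. Cenpa, the histone H3 variant that marks centromeres, was at 3.51, 4.68 and 6.79 CPM in the lowest, median and highest control, at 4.56, 3.11, 5.54 and 12.3 CPM in depleted and at 21.7, 24.3 and 9.23 CPM in hepatectomised livers. Depleted replicate 4 alone lay above the controls, and depleted replicate 2 lay below them. Cenpa differed by 0.39 ± 0.38 (SE, adjusted p = 0.463) in depleted livers (-0.15 without depleted replicate 4) and rose by 1.82 ± 0.41 (SE, adjusted p = 0.0186) after hepatectomy. Ndc80 encodes the microtubule-binding subunit of the NDC80 complex. It was at 0.134, 0.173 and 0.989 CPM in the lowest, median and highest control, at 2.21, 0.986, 2.18 and 3.39 CPM in depleted and at 3.20, 9.21 and 1.47 CPM in hepatectomised livers, and depleted replicate 2 lay level with control replicate 4. Ndc80 rose by 2.54 ± 0.68 (SE, adjusted p = 0.0115) in depleted livers and by 3.46 ± 0.77 (SE, adjusted p = 0.0168) after hepatectomy. Cenpe, a kinetochore motor, rose by 2.05 in depleted livers and by 3.74 after hepatectomy, and Cenpf and Nuf2 rose after hepatectomy, by 4.03 and 4.63, with 1.71 ± 0.76 (SE, adjusted p = 0.104) and 2.05 ± 0.88 (SE, adjusted p = 0.0925) in depleted livers.

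The other subunits of the NDC80 complex, Spc24 and Spc25, hold it to the inner kinetochore and were the only members with estimates below 0 in depleted livers. Spc24 (chr9:21755442-21760286, minus strand) was at 6.82, 9.42 and 12.4 CPM in the lowest, median and highest control, at 3.38, 6.27, 5.10 and 6.13 CPM in depleted and at 17.1, 42.2 and 7.48 CPM in hepatectomised livers. All 4 depleted livers lay below all 6 controls, and hepatectomised replicate 3 lay inside the control range. The differences of -0.76 ± 0.38 (SE, adjusted p = 0.145) and 1.07 ± 0.41 (SE, adjusted p = 0.132) in depleted and hepatectomised livers missed the threshold in both. Spc25 was at 2.48, 3.88 and 16.4 CPM in the lowest, median and highest control, at 2.57, 1.52, 2.10 and 6.21 CPM in depleted and at 27.0, 54.2 and 10.9 CPM in hepatectomised livers. Depleted replicates 2 and 3 lay below all controls, and hepatectomised replicate 3 lay inside the control range. Its differences were -1.004 ± 0.65 (SE, adjusted p = 0.261) and 2.44 ± 0.71 (SE, adjusted p = 0.0554), and without control replicate 4 the depleted value was -0.01. Per kilobase of exon, Spc24 had the highest mean level of the 50 genes in each group, with 7.02 ± 1.56 CPM per kb in controls, 3.87 ± 0.99 in depleted and 16.5 ± 13.3 in hepatectomised livers (SD, n = 6, 4 and 3). The next gene lay within that spread in depleted livers (Mki67, 3.68 ± 1.91 CPM per kb) and after hepatectomy (Ccnb2, 15.5 ± 10.3 CPM per kb). Spc25, second in controls with 1.89 ± 1.65 CPM per kb, did not differ from its neighbour Mad2l1 (1.66 ± 0.77) beyond their spread.

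Spindle motors and assembly factors all rose after hepatectomy, and 3 of 7 rose in depleted livers. Kif11 encodes Eg5, the motor that pushes spindle poles apart. It was at 0.840, 1.53 and 4.16 CPM in the lowest, median and highest control, at 8.31, 5.51, 6.93 and 9.85 CPM in depleted and at 14.4, 34.8 and 5.54 CPM in hepatectomised livers. Both groups lay above all controls, and 3 depleted livers lay above hepatectomised replicate 3. Kif11 rose by 2.01 ± 0.52 (SE, adjusted p = 0.0101) in depleted livers and by 3.20 ± 0.60 (SE, adjusted p = 0.00895) after hepatectomy. Tpx2, which activates Aurora A on the spindle, was at 0.450, 0.880 and 5.57 CPM in the lowest, median and highest control, at 6.02, 3.70, 5.96 and 12.1 CPM in depleted and at 21.8, 53.9 and 6.76 CPM in hepatectomised livers. Depleted replicate 2 lay below control replicate 4. Tpx2 differed by 1.99 ± 0.73 (SE, adjusted p = 0.0538) in depleted livers and rose by 4.14 ± 0.90 (SE, adjusted p = 0.0165) after hepatectomy. Kif15, a motor that can stand in for Eg5, had the largest rise of the 50 genes in depleted livers, 3.23 ± 0.65 (SE, adjusted p = 0.00207), with 3.17, 1.95, 3.16 and 4.97 CPM against at most 0.643 CPM in controls, and rose by 3.38 ± 0.73 (SE, adjusted p = 0.0152) after hepatectomy. Kif4 rose by 1.84 and 3.58. Kif2c, Hmmr and Ckap2 rose after hepatectomy by 4.18, 4.90 and 4.32, with 1.76 ± 0.82 (SE, adjusted p = 0.119), 1.08 ± 0.97 (SE, adjusted p = 0.423) and 0.74 ± 0.93 (SE, adjusted p = 0.579) in depleted livers.

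Genes of the central spindle and of cytokinesis all rose after hepatectomy, while Kif23 and Racgap1 alone of the 6 rose in depleted livers. KIF23 and RACGAP1 form centralspindlin, which organises the midzone and recruits ECT2. Racgap1 was at 0.180, 0.762 and 5.06 CPM in the lowest, median and highest control, at 5.63, 4.70, 7.34 and 9.76 CPM in depleted and at 20.1, 36.6 and 7.46 CPM in hepatectomised livers. Depleted replicate 2 lay below control replicate 4. Racgap1 rose by 2.07 ± 0.74 (SE, adjusted p = 0.0484) in depleted livers and by 3.69 ± 0.87 (SE, adjusted p = 0.0232) after hepatectomy. Kif23 rose by 2.30 ± 0.49 (SE, adjusted p = 0.00282) in depleted livers, where its 4.20, 3.38, 3.60 and 5.64 CPM lay above the highest control level of 1.44 CPM, and by 1.88 ± 0.52 (SE, adjusted p = 0.0441) after hepatectomy. Prc1, which bundles midzone microtubules, was at 0.236, 0.622 and 5.46 CPM in the lowest, median and highest control, at 6.08, 2.87, 4.05 and 9.49 CPM in depleted and at 32.2, 53.6 and 6.86 CPM in hepatectomised livers. Depleted replicates 2 and 3 lay below control replicate 4. Prc1 differed by 1.80 ± 0.83 (SE, adjusted p = 0.118) in depleted livers and rose by 4.49 ± 1.04 (SE, adjusted p = 0.0213) after hepatectomy.

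Anln and Ect2 build the contractile ring through RhoA. Anln, which encodes anillin, was at 0.3001, 1.22 and 4.11 CPM in the lowest, median and highest control, at 2.93, 1.39, 2.498 and 3.63 CPM in depleted and at 12.4, 23.3 and 4.44 CPM in hepatectomised livers. All 4 depleted livers lay inside the control range. Anln differed by 0.76 ± 0.61 (SE, adjusted p = 0.372) in depleted livers and rose by 3.36 ± 0.75 (SE, adjusted p = 0.0180) after hepatectomy. Ect2, the exchange factor that activates RhoA at the cell equator, was at 0.870, 1.44 and 7.35 CPM in the lowest, median and highest control, at 3.56, 2.35, 2.48 and 4.90 CPM in depleted and at 23.5, 40.9 and 8.41 CPM in hepatectomised livers. No depleted liver reached control replicate 4, and all hepatectomised livers exceeded it. Ect2 differed by 0.39 ± 0.60 (SE, adjusted p = 0.662) in depleted livers (1.39 and an adjusted p of 0.0333 without control replicate 4) and rose by 3.52 ± 0.71 (SE, adjusted p = 0.0123) after hepatectomy. Kif20a, the motor that carries the passenger complex to the midzone, differed by 0.81 ± 0.74 (SE, adjusted p = 0.437) in depleted livers and rose by 3.67 ± 0.90 (SE, adjusted p = 0.0273) after hepatectomy.

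In the proteolysis of anaphase, Ube2c and Espl1 rose in both groups, and Cdc20 and Pttg1 did so after hepatectomy. Ube2c, the ubiquitin-conjugating enzyme of the anaphase-promoting complex, was at 0.240, 0.549 and 3.82 CPM in the lowest, median and highest control, at 6.38, 1.95, 4.58 and 11.98 CPM in depleted and at 29.6, 45.6 and 5.54 CPM in hepatectomised livers. Depleted replicate 2 lay below control replicate 4. Ube2c rose by 2.49 ± 0.82 (SE, adjusted p = 0.0334) in depleted livers and by 4.86 ± 1.03 (SE, adjusted p = 0.0143) after hepatectomy. Cdc20, the activator of the complex, was at 0.270, 0.537 and 6.99 CPM in the lowest, median and highest control, at 2.78, 2.06, 3.60 and 7.26 CPM in depleted and at 29.8, 46.6 and 8.98 CPM in hepatectomised livers. Only depleted replicate 4 lay above control replicate 4. Cdc20 differed by 1.17 ± 0.85 (SE, adjusted p = 0.318) in depleted livers (3.14 and an adjusted p of 0.00237 without control replicate 4) and rose by 4.36 ± 1.07 (SE, adjusted p = 0.0265) after hepatectomy. Pttg1, which encodes securin, the inhibitor of separase, was at 1.58, 2.47 and 4.41 CPM in the lowest, median and highest control, at 2.48, 1.72, 2.602 and 7.06 CPM in depleted and at 18.05, 28.9 and 7.71 CPM in hepatectomised livers. Depleted replicates 1, 2 and 3 lay inside the control range. Pttg1 differed by 0.46 ± 0.47 (SE, adjusted p = 0.490) in depleted livers (-0.16 without depleted replicate 4) and rose by 2.71 ± 0.51 (SE, adjusted p = 0.00837) after hepatectomy. Espl1, which encodes separase itself, rose by 2.54 ± 0.58 (SE, adjusted p = 0.00448) and 3.43 ± 0.65 (SE, adjusted p = 0.00820).

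Condensin compacts the mitotic chromosomes. Ncapg, a subunit of condensin I, was at 0.0900, 0.363 and 2.40 CPM in the lowest, median and highest control, at 3.75, 1.93, 3.35 and 6.505 CPM in depleted and at 7.67, 21.6 and 2.49 CPM in hepatectomised livers. Depleted replicate 2 lay below control replicate 4, and hepatectomised replicate 3 lay just above it. Ncapg rose by 2.46 ± 0.83 (SE, adjusted p = 0.0369) in depleted livers and by 4.08 ± 1.02 (SE, adjusted p = 0.0294) after hepatectomy. Smc2, the ATPase subunit of both condensins, was at 1.62, 4.42 and 7.10 CPM in the lowest, median and highest control, at 12.3, 7.17, 8.23 and 11.9 CPM in depleted and at 14.8, 44.5 and 6.61 CPM in hepatectomised livers. All depleted livers lay above the controls, and hepatectomised replicate 3 did not. Smc2 differed by 1.16 ± 0.48 (SE, adjusted p = 0.0845) in depleted livers and rose by 2.47 ± 0.58 (SE, adjusted p = 0.0229) after hepatectomy. Ncapd2 and Ncaph, further subunits of condensin I, rose by 1.55 and 1.87 in depleted livers and by 2.27 and 3.12 after hepatectomy.

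The 2 groups were then tested against each other directly, since both comparisons above share their controls. Depleted livers were below hepatectomised livers in 48 of 50 estimates, with a median log2 fold change of -1.84 (-0.05 over all genes tested). In these tests 9 genes were lower in depleted livers (10.1% of all genes) and 1 was higher (13.3% of all genes), out of 23.4% of all genes called in either direction. The 3 hepatectomised livers lay above the 4 depleted livers for 13 genes (15.9% of all genes) and below them for 1, Mybl2 (18.1% of all genes). Hepatectomised replicate 3 lay above all depleted livers for 13 genes (29.0% of all genes), within their range for 30 and below them for 7. Hepatectomised replicates 1 and 2 both lay above all depleted livers for 42 genes (25.2% of all genes).

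The 9 genes lower in depleted livers are given by role, and each value here is a log2 fold change of depleted against hepatectomised livers with its SE. Among kinases, Cdk1 differed by -2.65 ± 0.88 (adjusted p = 0.0479), Aurka by -3.48 ± 1.16 (adjusted p = 0.0478) and Nek2 by -3.11 ± 0.98 (adjusted p = 0.0380). The NDC80 subunits Spc24 and Spc25 differed by -1.83 ± 0.49 (adjusted p = 0.0172) and -3.44 ± 0.86 (adjusted p = 0.0131), and the checkpoint gene Mad2l1 by -1.85 ± 0.59 (adjusted p = 0.0404). The cytokinesis genes Anln and Ect2 differed by -2.60 ± 0.83 (adjusted p = 0.0401) and -3.13 ± 0.82 (adjusted p = 0.0165), and Pttg1, the securin gene, by -2.24 ± 0.61 (adjusted p = 0.0196). Mybl2 was the gene higher in depleted livers, by 1.77 ± 0.50 (SE, adjusted p = 0.0220). For Kif23 the difference was 0.42 (95% interval -0.90 to 1.75), for Kif15 -0.15 (-1.92 to 1.62), for Incenp -0.40 (-1.69 to 0.89) and for Mki67 -1.11 (-3.37 to 1.16), intervals that leave room for differences in either direction. Hmmr had the largest estimate, -3.82 ± 1.36 (SE, adjusted p = 0.0623), which missed the threshold. Each of the 10 calls was lost without at least 1 library. The count of 9 lower genes was 4 without depleted replicate 1 or 2, 0 without depleted replicate 3, 5, 3 and 24 without hepatectomised replicates 1, 2 and 3 respectively. Other fits of all libraries without a block called 4 to 16 genes lower, and a fit of these 2 groups alone called 2. With the replicate number as a block 29 were lower and 0 higher, with 1358 of all 13831 genes lower and 1812 higher, and Mybl2 then differed by 1.65 (adjusted p = 0.0562). Mybl2 had an adjusted p of 0.0700, 0.0647 and 0.0718 without depleted replicate 3, hepatectomised replicate 1 and hepatectomised replicate 3.

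**Figure D4:**
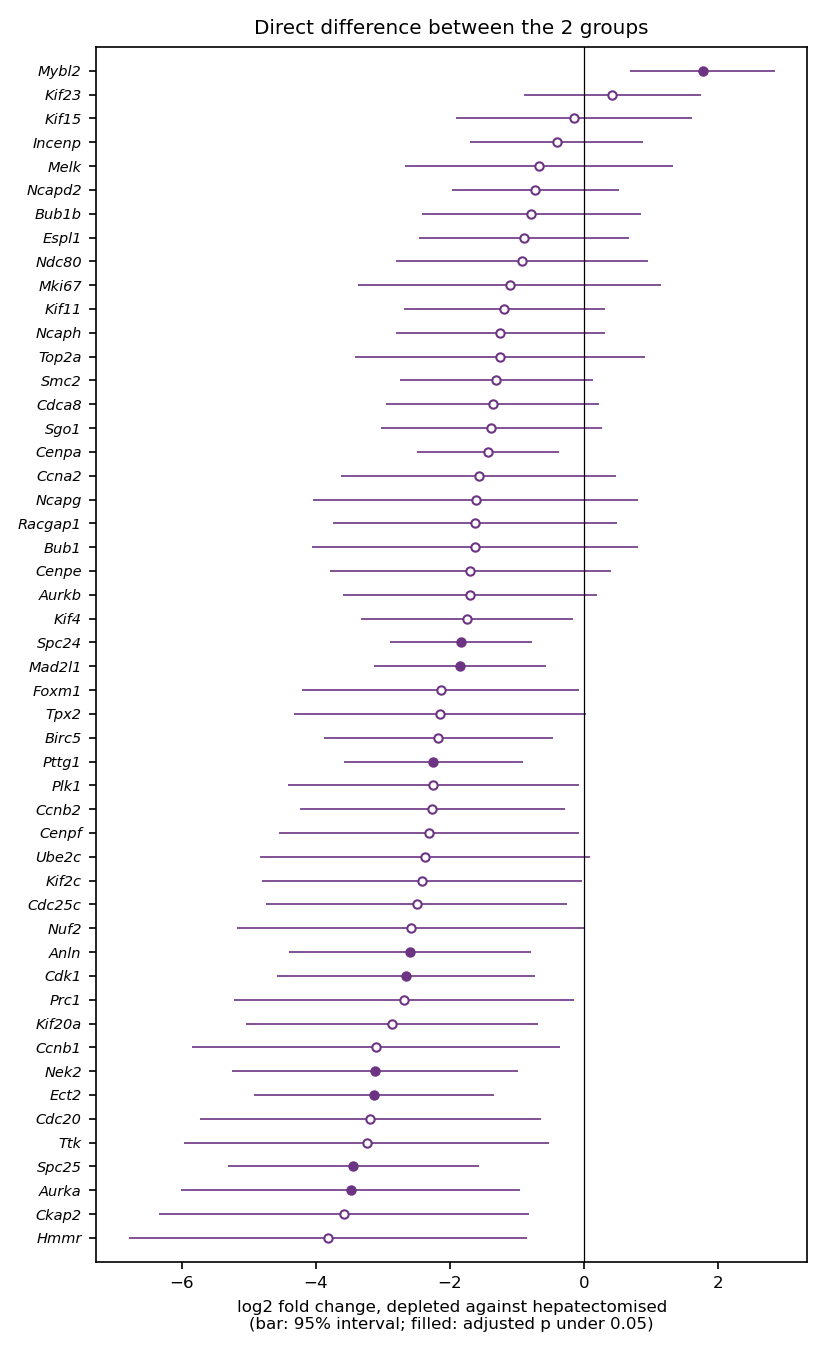
Log2 fold change of depleted against hepatectomised livers for the 50 genes, sorted, with 95% intervals; filled points have an adjusted p under 0.05. Mybl2 and Kif23 are the estimates above 0, and the intervals of the 9 genes called lower lie wholly below 0.

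Promoter elements were also counted by response. Among genes with a promoter window, CCAAT was found in 17 of the 23 that rose in depleted livers and in 14 of the 19 that did not pass the test, and a CHR in 18 of 23 and 14 of 19. Of the 8 matched genes lower in depleted than in hepatectomised livers, 5 had a CCAAT box and 5 had a CHR, as against 26 and 27 of the 33 genes without a call. In the stretches printed above, Hmmr, which missed the threshold in depleted livers, has 4 CCAAT boxes, and Ccnb2, which rose there, has 3. These are counts of letters over few genes, given without a test.

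Further genes of the division programme were read from lists written with earlier results of these data known. Of 67 other mitosis genes, 21 rose and 1 fell in depleted livers (median log2 fold change 1.28) and 48 rose and 0 fell after hepatectomy (3.02). Cdc25b, a phosphatase that activates CDK1, rose by 2.32 ± 0.34 (SE, adjusted p = 0.00024) in depleted livers, and Zwilch, a checkpoint gene, rose by 3.60 ± 0.57 (SE, adjusted p = 0.00388) after hepatectomy. Hjurp, the chaperone of CENP-A, was the gene that fell in depleted livers, by 0.99 ± 0.21 on the log2 scale (SE, adjusted p = 0.00321), from 155 ± 35.7 to 74.7 ± 15.7 CPM (SD, n = 6 and 4). Its mean control level exceeded the 47.2 to 94.0 CPM summed over the 50 G2 and mitosis genes in controls other than replicate 4. Whether another gene overlaps Hjurp was not checked. Of 48 DNA replication genes, 12 rose and 2 fell in depleted livers (median 0.77), and 22 rose and 0 fell after hepatectomy (1.69), and over all genes 18.9% rose and 15% fell in depleted livers and 6.06% rose and 2.36% fell after hepatectomy. Orc1, which licenses replication origins, rose by 4.17 ± 0.69 (SE, adjusted p = 0.000548) in depleted livers, and Rrm2, a ribonucleotide reductase subunit, rose by 3.94 ± 0.60 (SE, adjusted p = 0.00378) after hepatectomy. In control replicate 4 the mean log2 CPM of replication genes was 2.06 against 1.57 to 1.93 in the other controls, a smaller step than for the 50 G2 and mitosis genes (1.71 against -1.39 to 0.47).

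Of 27 tested genes of a list of cell cycle brakes, 9 rose and 1 fell in depleted livers and 8 rose and 1 fell after hepatectomy. Over all genes 18.9% rose and 15% fell in depleted livers, and 6.06% rose and 2.36% fell after hepatectomy. The list also holds Mdm2 and genes of the MuvB core, which takes part in repression and in activation, so it is not one of restraint alone. Cdkn1a, which encodes the CDK inhibitor p21, rose with the mitosis genes in both groups, by 4.74 ± 0.53 (SE, adjusted p = 4.7e-05) in depleted livers and by 6.17 ± 0.57 (SE, adjusted p = 0.00013) after hepatectomy, from 0.996 ± 0.663 CPM in controls to 27.3 ± 19.8 and 74.9 ± 16.3 CPM (SD, n = 6, 4 and 3). Rbl2, which encodes the pocket protein p130 of DREAM, fell by 0.38 ± 0.12 (SE, adjusted p = 0.0241) in depleted livers and fell by 0.58 ± 0.13 (SE, adjusted p = 0.0155) after hepatectomy. Cdkn2a, which encodes p16 and ARF, was higher in depleted than in hepatectomised livers by 4.56 ± 0.87 (SE, adjusted p = 0.00269).

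Markers of other cell types moved with the groups, and their part in the levels of the 50 genes was not tested. Of 14 stellate cell markers, 13 fell in depleted livers and 0 passed the test after hepatectomy, and their summed level was 308 to 806 CPM in controls, 15.5 to 19.1 CPM in depleted replicates 1 to 3, 75.3 CPM in depleted replicate 4 and 340 to 637 CPM in hepatectomised livers. The depleted liver with the most stellate transcripts also had the highest summed level of the 50 genes in its group, 410 CPM. In depleted livers 8 of 8 T cell, 8 of 8 neutrophil, 8 of 8 NK cell, 7 of 8 B and plasma cell, 6 of 8 monocyte, 5 of 8 Kupffer cell, 7 of 8 tested granulocyte progenitor and 6 of 10 tested erythroid progenitor markers rose. After hepatectomy 6 neutrophil, 3 granulocyte progenitor and 1 monocyte marker rose, 2 B and plasma cell markers fell, and 0 T cell, NK cell, Kupffer cell or erythroid progenitor markers passed the test. Of 6 tested cholangiocyte markers, 1 rose in depleted livers and 2 rose after hepatectomy, where Krt19, a keratin of bile duct cells, rose by 2.10 ± 0.33 (SE, adjusted p = 0.00388). Of 8 endothelial markers, 1, the adhesion gene Pecam1, rose in depleted livers, by 1.47 ± 0.43 (SE, adjusted p = 0.0187), and 0 rose or fell after hepatectomy. Summed T cell markers were 2.99 to 5.12 CPM in controls, 41.3 to 102 CPM in depleted and 3.02 to 5.38 CPM in hepatectomised livers. Granulocyte progenitor markers, from cells that divide, summed to 3.16 to 12.5 CPM, 64.3 to 120 CPM and 16.4 to 75.7 CPM in the same order, and erythroid progenitor markers to 47.7 to 214 CPM, 26.4 to 190 CPM and 30.4 to 110 CPM. As mean log2 CPM over the list, which weights its genes equally, the erythroid progenitor markers stood at 2.91 and 2.93 in depleted replicates 1 and 4, at -0.05 and -0.20 in depleted replicates 2 and 3, at -1.22 to -0.88 in controls and at -1.75 to -1.05 after hepatectomy. Depleted replicates 1 and 4 were also the highest of their group in the summed level of the 50 genes, with 278 and 410 CPM against 155 and 230 CPM in replicates 2 and 3. Ly6g, Ms4a3, Hemgn and Rhag, markers of neutrophils, granulocyte progenitors and the erythroid line, had no read in any control. Cebpe and Alas2, the granulocyte progenitor and erythroid markers with the highest control levels, did not rise in depleted livers. Their log2 fold changes there were -0.51 (adjusted p = 0.343) and -0.20 (adjusted p = 0.783). The 12 hepatocyte markers stayed abundant in all livers, at a sum of 79848 to 200437 CPM, and 1 rose in depleted livers and 2 rose after hepatectomy. Which cells carried the 50 transcripts is not resolved by these libraries.

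**Figure D5:**
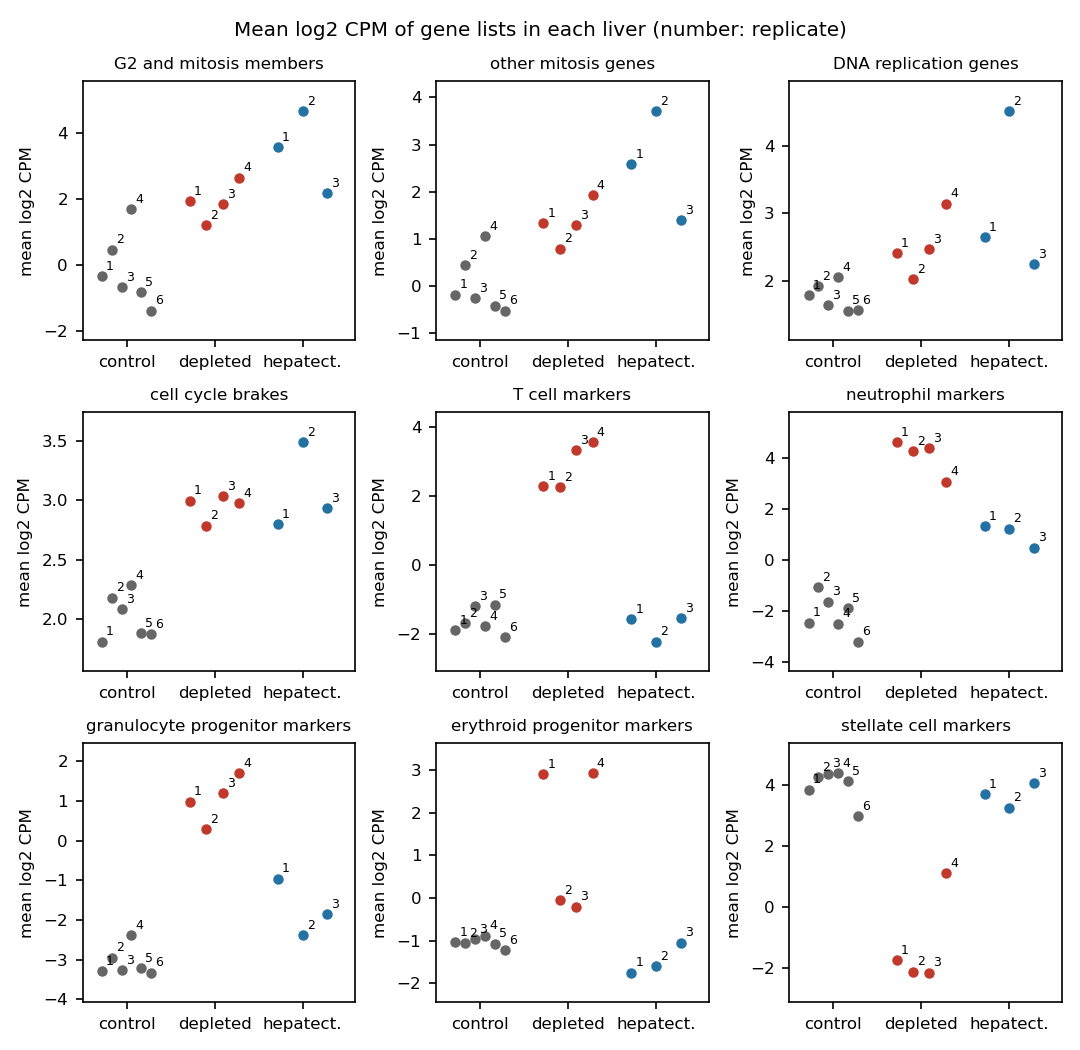
Mean log2 CPM of 9 gene lists (vertical axes, differing between panels) in each liver, with replicate numbers beside the points. The 50 genes and the other mitosis genes place control replicate 4 and depleted replicate 4 at the top of their groups, while T cell and granulocyte progenitor markers place all depleted livers above all others.

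Sex was tested among the same genes. Between the 3 male and 3 female controls, 44 of the 50 genes could be tested and 0 were called (0.384% of 13005 genes were called higher and 0.354% lower in males). An unadjusted p under 0.05 was reached by 1 of the 44, and 4 had higher estimates in males. A sex-by-depletion term called 0 of the 50 genes, with 0 at an unadjusted p under 0.05 and 0.0148% of all genes called, although only 1 depleted liver was male. Of the 50 genes, 13 have another annotated gene over an exon (10 on the opposite strand, among them Ccna2, Plk1, Cdc20, Prc1 and Ube2c), and whether the counting used strand is not given in the sources used here, so reads of such neighbours cannot be told apart from theirs.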

How the data were processed

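The authors deposited one table of whole-number read counts per gene for the 13 libraries. Per the labels' protocols, RNA was extracted with TRIzol and libraries were made with a stranded TruSeq mRNA kit. The submitters' processing notes name STAR 2.7.1a, SAMtools 1.15.1, featureCounts 1.6.4 and mm10, without roles or order, and the handling of strand and multi-mapped reads is not given in the sources used here. Symbols came from a table of gene IDs and names (21741 of 22048 IDs matched), and exons of all 50 members overlapped the same gene in GENCODE M21 (GRCm38). Coordinates are those of the deposited table (mm10). The members and lists were chosen with earlier results of these data known. All 50 are named, 28 with full values by role and Spc24 and Spc25 for their direction. The values of 1 gene of another list are not reported here.

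Counts were fitted over all 13 libraries with group and sex in edgeR 4.0.16 (R 4.3.3; filterByExpr, TMM, robust glmQLFit, glmQLFTest, two-sided), and p-values were adjusted by Benjamini-Hochberg at 0.05. The scripts were tested on simulated data. Log2 CPM used a prior count of 2. DESeq2 1.42.0, limma 3.58.1 (voom) and Python 3.11.15 scripts served the alternatives, motif counts and plots. Within groups, the lowest median chi-square between 2 libraries was 4.60, 6.30 and 13.4 (0.455 for 1 library sequenced again), so all counted as replicates.

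Replicate numbers come from descriptions and titles. Deviations from group means of same-numbered hepatectomised and control livers correlated at 0.11 to 0.52 over 3 pairs, each of 1 sex, and at -0.19 to 0.08 once sex was fitted. Depleted and control pairs gave -0.34 to 0.07 (-0.10 to 0.42 with sex fitted, 1 of 4 over 0.1), and depleted and hepatectomised pairs -0.35 to -0.0012 (0.04 to 0.27, 2 of 3 over 0.1). The main fit has no block.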

Additional observations from a re-analysis of the deposited data

How the results depend on the processing

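All 50 estimates after hepatectomy stayed above 0 in every fit run, and 17 of the 47 genes that rose did so in every fit. In depleted livers against control 7 of the 26 did, and in depleted against hepatectomised livers 0 of the 10. The members higher in depleted livers than in controls, 26, numbered 14 to 44 with 1 library left out, 7 among females, 43 without control replicates 4 and 6 and 42 without depleted and control replicate 4 (both chosen after seeing the data). A fit of these 2 groups alone also called 1 gene, Spc24, lower. After hepatectomy the members called numbered 17 to 48 with 1 library left out and 25 in the fit of 2 groups. Members lower in depleted than in hepatectomised livers, 9, numbered 14 without sex in the model, 2 in the fit of 2 groups, 4 with library-size scaling, 16 with DESeq2, 16 with limma-voom and 21 without depleted and control replicate 4. With 1 library left out they numbered 0 to 24, and those higher 0 to 1.

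Over all genes, depletion called 4692 (2960 to 4817 with 1 library left out, 2726 in females), hepatectomy 1164 (483 to 1331, 2192 with library-size scaling, 1939 with DESeq2, of which 61.5% higher) and depletion against hepatectomy 3236 (1709 to 3850, 2105 in the fit of 2 groups, of which 66.4% higher). Among females 67.5% of the calls were higher. Sex in controls called 96 (32 to 200, 449 with DESeq2). With the replicate number as a block, 36 of the 50 genes rose in depleted livers, 47 rose after hepatectomy (632 genes in all), and 29 were lower and 0 higher in depleted than in hepatectomised livers. The numbers of depleted livers are shared with the other groups as numbers only.

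The direction turned between depleted and hepatectomised livers for Kif15 (0.33 in the fit of 2 groups, 0.18 with library-size scaling, 0.35 with limma-voom, 0.12 with the replicate block, 0.16 without control replicates 4 and 6, and -0.93 to 0.91 with 1 library left out), for Incenp (0.036 in the fit of 2 groups, -1.14 to 0.37 with 1 library left out) and, with 1 library left out, for Melk (-1.37 to 0.45) and Kif23 (-0.015 to 0.66). Against controls it turned in the same way for Nek2 (-0.13 to 1.87), Cenpa (-0.15 to 0.60) and Pttg1 (-0.16 to 0.89), with the lowest value in each without depleted replicate 4. The cause was not tested. A value of 3 counts, 0.0524 to 0.0900 CPM over the libraries, limits what the lowest levels in controls can show.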
